A study of Drosophila melanogaster with 4 samples.

Results

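The engrailed (en) and invected (inv) locus of Drosophila melanogaster was examined for occupancy by TCF, the product of the gene pangolin. Its peaks were all those of the deposited list whose midpoint lay on chromosome arm 2R from 7.34 to 7.44 Mb (FlyBase release 5), and 10 of the 4589 peaks of the list met this rule. The rule itself uses position only, but the locus was chosen with earlier results of these data known. The list names no gene, and the gene table used for names is on release 6. Coordinates were not converted between releases, so no peak is placed at an exon, an intron or a promoter. In that table inv and en are direct neighbours on 2R, with E(Pc) on the far side of inv and tou on the far side of en.

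The values come from ChIP-seq, which reads out the genomic DNA recovered with an antibody from fixed chromatin, on whole embryos of 0 to 8 h. There were 2 ChIP libraries made with a crude rabbit polyclonal serum against the N-terminus of TCF, and 2 input libraries, which are chromatin DNA taken without the antibody. All 4 came from the strain Y cn bw sp, whose listed alleles are cn[1], bw[1] and sp[1], with y[1], oc[R3.2] and CG33964[R4.2], and also lab[R4.2], Rh6[1], GstD5[1], MstProx[1] and LysC[1] as well as Gr22d[1] and Gr22b[1]. The sex was given as unknown, and whether the replicates are separate embryo collections is not stated. The stage is the labelled one, although part of the protocol text speaks of later egg laying. The files hold 1 peak list for the 4 libraries together, with 1 score per peak, so no value below has a replicate error, library depths are unknown, and ChIP and input libraries could not be compared with each other.

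TCF is the transcription factor through which Wingless, a Wnt protein, acts on its target genes. When Wingless reaches a cell, the coactivator Armadillo joins TCF at target genes and turns them on, whereas without the signal TCF works with corepressors such as Groucho and keeps them off. The genes en and inv encode related homeodomain transcription factors that are expressed together in the posterior cells of each embryonic segment and share much of their regulatory DNA, which is spread over a long stretch around both genes and is also a Polycomb domain. In the early embryo the pair-rule genes start the stripes of en, and Wingless from the neighbouring cells then keeps them on, while cells with En secrete Hedgehog, which in turn keeps wingless on. Whole embryos mix cells that receive Wingless with cells that do not, so the peaks do not show in which cells TCF was bound.

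TCF peaks were more numerous and, by median score, stronger at the high-coordinate end of the inv-en window than in the rest (35.17 against 8.10). The last 7 peaks lay within 24144 bp, from 7412944 to 7437087, and had scores of 12.18 to 143.59. The other 3 peaks were scattered over 41249 bp, from 7340667 to 7381915, with scores of 6.68, 8.10 and 13.38. That number is not low for the list, as windows of 100 kb on the arms had a median of 2 peaks. Between both groups lay 31028 bp without a peak, the widest gap in the window. Gaps at least that wide were common, at 945 of the 4538 between adjacent peaks on the arms (20.8%). The cut between the groups was placed at that widest gap of these same peaks, and no like cut of other windows is given. The contrast between the groups is therefore a description and was not tested. The 7 peaks at high coordinates carried 88.1% of the 7616 bp covered in the window. Of the 10 bins of 10 kb, 4 held no peak midpoint, which is fewer than in a window with the median of 2 peaks. A bin or stretch without a peak is one where nothing passed the authors' threshold, which is not given in the sources used here, and is not evidence that TCF was absent.

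**Figure D1:**
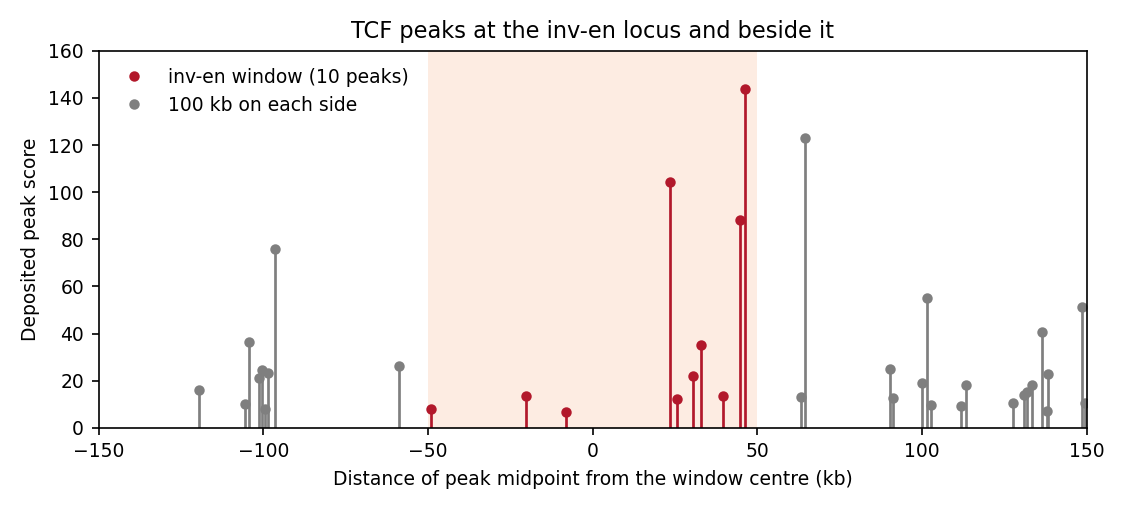
Deposited score of each TCF peak (vertical axis) against the distance of its midpoint from the centre of the inv-en window in kb (horizontal axis). Red points are the 10 peaks of the shaded window and grey points are peaks of the 100 kb on each side. The 3 highest red points, at scores of 88.19, 104.16 and 143.59, stand in the high-coordinate part of the window.

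The strongest TCF peak of the locus lay at 7435673 to 7437087 and was 1415 bp wide. Its score of 143.59 ranked 224 among all 4589 peaks and 34 among the 902 on 2R. Most scores of the list (94.7%), all 10 of the locus among them, fell on the steps of a Poisson tail, as described under the processing. Each of the 10 scores could thus be turned into an implied read pileup over an expectation of 71.7 that is common to the list. On that scale the peak reached 5.30-fold (95% exact Poisson interval 4.78 to 5.86). This and the following intervals cover counting error only, and the folds are over that single expectation, not over the input at each place.

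Its neighbour, at 7433934 to 7435296, was 1363 bp wide and ended 376 bp before it. The score was 88.19, rank 402 in the list, and the implied fold was 4.15 (3.70 to 4.65). The intervals of these adjacent peaks do not overlap, but they hold no replicate error, and the difference was not tested. Pairs with both scores this high could not be common in the list, where 8.76% of single peaks scored 88.19 or more. A gap of at most 376 bp separated 717 of the 4538 pairs of adjacent peaks on the arms (15.8%), and 7 of the 4538 pairs, this one included, also had both scores at 88.19 or more. These limits are the pair's own values, chosen after they were seen, so the counts are descriptions and do not mark the pair as unusual.

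The third strong peak stood apart from that pair, at 7412944 to 7413992, at the start of the group of 7. It was 1049 bp wide with a score of 104.16, rank 338 in the list, and an implied fold of 4.50 (4.03 to 5.02). Its interval overlaps those of both other strong peaks, and the differences in height were not tested. Together these 3 peaks made up 50.2% of the summed width of the locus, and no other peak of the window reached 3-fold.

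Another peak, at 7422621 to 7423079, was narrow for its score. With 459 bp it was less than the median width of the window, but its score of 35.17 ranked 1079 in the list, and its implied fold was 2.79 (2.42 to 3.20). Among the 466 other peaks within 10% of its width, the median score was 14.95, and 92.7% scored lower. No other peak of the locus stood so high among peaks of its own width: the 3 strong peaks scored above 84.5%, 69.4% and 81.1% of theirs, in the order of their coordinates.

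The remaining 3 peaks of the group scored low for their width. The peak at 7420026 to 7421054 was 1029 bp wide, much like the strong peak at the start of the group, but had a score of 21.93 and an implied fold of 2.34 (2.00 to 2.72). Of the 322 other peaks of like width, 14.0% scored lower, and their median score was 41.19. The peak at 7415149 to 7415822, 1156 bp beyond the strong peak, had a score of 12.18 over 674 bp and an implied fold of 1.94 (1.63 to 2.29). Only 7.82% of the 422 other peaks of like width scored lower. The peak at 7429151 to 7429867 had a score of 13.69 over 717 bp, an implied fold of 2.01 (1.69 to 2.36) and 14.0% of 401 peaks of like width below it. Within the group, peaks that scored high and peaks that scored low among peaks of like width thus lay side by side.

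**Figure D2:**
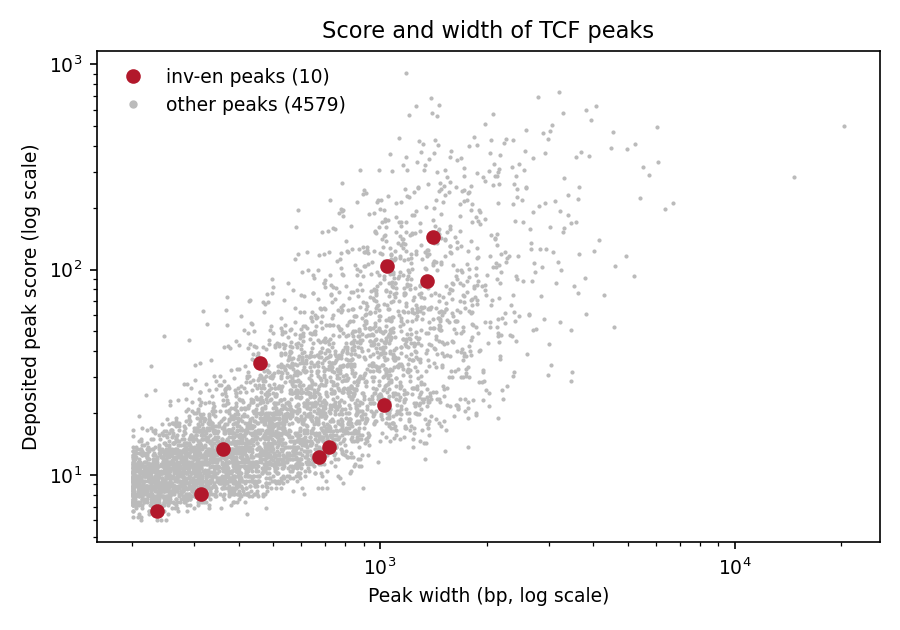
Deposited score (vertical axis, log scale) against peak width in bp (horizontal axis, log scale). Red points are the 10 inv-en peaks and small grey points the 4579 other peaks. Of the red points near 1000 bp, the peak at a score of 104.16 lies high among peaks of its width and the peak at 21.93 lies low.

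Of the 3 peaks at low coordinates, 1 lay in the middle of the list by score and the other two near its bottom. The peak at 7369691 to 7370051, 361 bp wide, was the strongest of them, with a score of 13.38, rank 2742, and an implied fold of 1.99 (1.68 to 2.35). Its score was close to the median of 12.47 among 485 other peaks of like width. The peak at 7340667 to 7340979, 313 bp wide, had a score of 8.10, rank 4341, and 1.73-fold (1.44 to 2.06). The peak at 7381680 to 7381915, 236 bp wide, had a score of 6.68, rank 4570, and 1.65-fold (1.36 to 1.97), which puts it among the weakest calls of the whole list. Gaps of 28711 bp and 11628 bp separated these 3 peaks, against a median gap of 5425 bp between adjacent peaks on the arms. Such gaps were not rare, as even gaps of at least 31028 bp made up 20.8% of those on the arms. The intervals of the 3 folds overlap one another, and their differences were not tested.

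**Figure D3:**
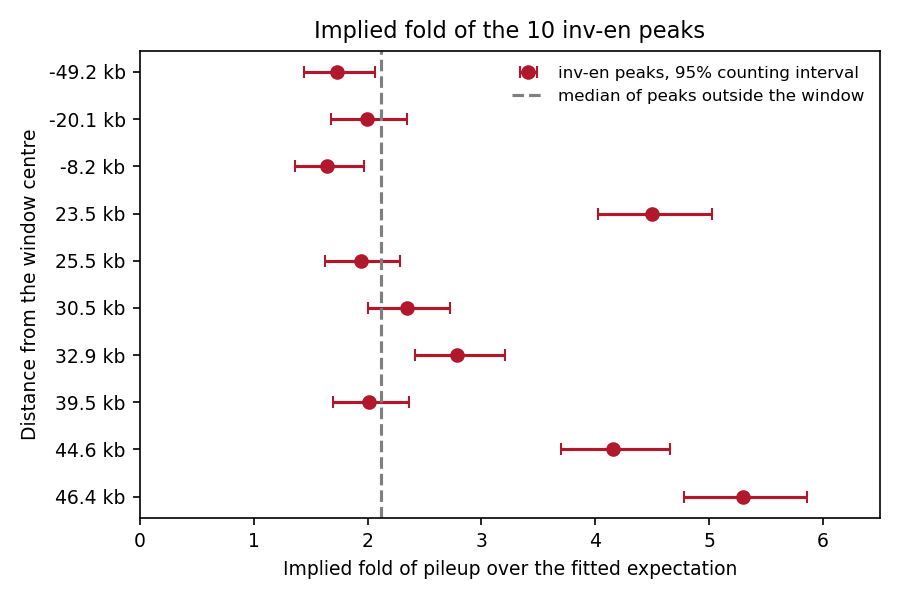
Implied fold of the pileup over the fitted expectation (horizontal axis) for each inv-en peak, from low to high coordinates down the page, labelled by distance from the window centre in kb. Points are the implied folds, bars are exact Poisson 95% intervals for counting error only, and the dashed line is the median of 2.12 for peaks outside the window. The peaks at 4.15-fold, 4.50-fold and 5.30-fold lie clear of that line, the interval of the peak at 2.79-fold lies above it too, and those of the peaks at 1.65-fold and 1.73-fold lie below it.

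By median score and median fold, the inv-en peaks lay near the rest of the list. Their median width and the upper quartile of their scores were higher. The median score was 17.8 at the locus (interquartile range 12.5 to 74.9), against 16.3 (11.0 to 33.4) for the 4579 other peaks and 15.6 (10.7 to 30.4) for the 892 other peaks on 2R. The median width was 695.5 bp (385.5 to 1044) at the locus, against 500 bp (309 to 861) and 504.5 bp (305 to 872) in the same sets. The median implied fold was 2.17 for the 10 inv-en peaks and 2.12 for the 4335 other peaks that have one. At or above the median score of the list were 5 of the 10 inv-en peaks, against 50.2% of all peaks. In the top 25% by score were 4 of 10, or 40.0% (95% exact Clopper-Pearson interval 12.2 to 73.8), against 25.3% of all peaks. With peaks within 200 bp merged this share was 30.0%, and with peaks within 1000 bp merged, which joins the strong pair, it was 22.2%, so its place above the background depends on how peaks were divided. In the top 10% were 3 of 10, or 30.0% (6.67 to 65.2), against 10.0% of all peaks. Wider than 1000 bp were 4 of 10 inv-en peaks, against 19.9% of all peaks. The intervals hold the background share in each case where they are given. They treat the 10 peaks as independent, which neighbouring peaks need not be, and no test was run on these shares.

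Spacing within the locus was close to that of the list. The median distance from a midpoint to the nearest other midpoint was 2310 bp for the inv-en peaks and 2323 bp for all peaks on the arms, and for 6 of the 10 it was at most 5000 bp, against 65.3% of all peaks. Where gaps of at most 5000 bp were joined, the 7 peaks at high coordinates formed 2 runs. The first held 4 peaks from 7412944 to 7423079, with 31.7% of its 10136 bp covered. The second held 3 peaks from 7429151 to 7437087, with 44.0% of its 7937 bp covered. Each run contained at least 1 strong peak and at least 1 that scored low for its width, and the gap between them was 6071 bp.

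As a stretch of chromosome, the locus was among the fuller ones. The inv-en window held 10 peaks, against a median of 2 in the 1183 windows of 100 kb laid end to end on the arms 2L, 2R, 3L, 3R, 4 and X. Unlike the inv-en window, those windows were not placed around genes. Their bounds split the locus between adjoining windows with 4 and 14 peaks, some of them from beyond the locus. Of those windows, 105 (8.88%) had at least 10 peaks. Peaks covered 7.62% of the inv-en window, and 98 windows (8.28%) were covered at least as much, with a median of 1.42%. A best score of at least 143.59 was found in 189 windows (16.0%). At least 3 peaks of the top 10% by score, as at inv-en, were found in 28 windows (2.37%), a measure that was not planned. When peaks within 1000 bp of each other were merged, the strong pair counted as 1, and at least the 2 such peaks then left at inv-en were found in 58 windows (4.90%). On 2R alone, 25 of 211 windows (11.8%) had 10 or more peaks.

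**Figure D4:**
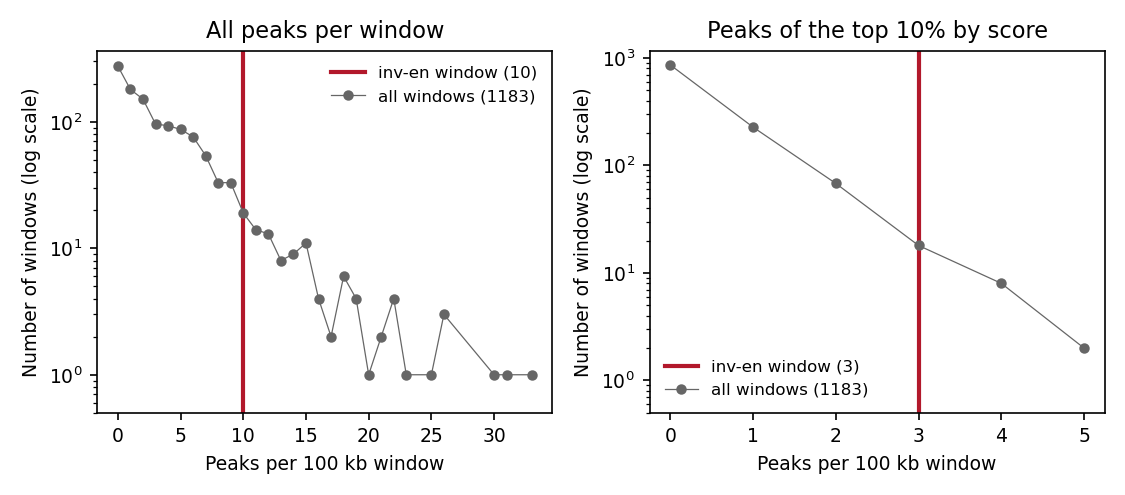
Number of windows of 100 kb (vertical axis, log scale) by the number of TCF peaks per window (horizontal axis), for all peaks on the left and for peaks of the top 10% by score on the right. The red lines mark the inv-en window, at 10 peaks and at 3 peaks of the top 10%. Windows at or beyond the red line make up 8.88% on the left and 2.37% on the right. The measure on the right was not planned.

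TCF peaks continued on both sides of the window. Just inside the low bound was the peak at 7340667 with a score of 8.10, and just outside it, 9369 bp away, was the peak at 7330933 to 7331297 with a score of 26.21. Just inside the high bound was the strongest peak of the locus, with a score of 143.59, and just outside it, 16165 bp away, was the peak at 7453253 to 7453516 with a score of 13.08. The next 100 kb at high coordinates held 18 peaks and were 13.8% covered. Their best peak, at 7453876 to 7455144, had a score of 123.03 and an implied fold of 4.89 (4.39 to 5.43), whose interval overlaps that of the strongest inv-en peak. The 100 kb at low coordinates held 9 peaks and were 7.48% covered, with a best score of 76.06 at 7292813 to 7293988. Whether a peak near either bound acts on en, on inv or on a neighbouring gene was not tested.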

How the data were processed

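TCF ChIP-seq of whole embryos was analysed from 1 peak list deposited by the authors for 2 ChIP and 2 input libraries. Per the file headers, coordinates are on FlyBase release 5 and the feature source is MACS. Per the submitters' processing notes, the build was BDGP5 and the tools included MACS2, BWA and CASAVA (1.7.0.2 and 1.7.0.3), with no roles given. How reads were filtered, whether replicates were pooled and which threshold was applied is not given in the sources used here. The authors deposited 1 score for each peak, unnamed and of unstated scale. Among expected pileups between 1 and 400, the value was sought that makes the most scores equal to -log10 of an upper Poisson tail at a whole pileup. At 71.7, 4345 of 4589 scores (94.7%) matched within 0.01, all 10 inv-en scores among them, against 33.9% at the best other value at least 1% away. An implied pileup is known to within 1 and is high by selection, because it is the value the caller scored.

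Window comparisons used full windows of 100 kb from the first base of each arm to its last peak. No chance test was run, since peaks are not replicates. All 10 peaks, the genes inv and en with their neighbours, and both adjoining 100 kb stretches are named. The window and the measures were chosen with earlier results of these data known. The alternatives changed the peaks kept, the merging, the membership rule, the window bounds, the windows compared and the tolerance. The planned motif search in the promoters of en and inv was not run, because no sequence was used here. Values were computed in Python 3.11.15 with pandas 2.3.3, SciPy 1.17.1 and NumPy 2.4.6, and plotted with matplotlib 3.10.9.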

Additional observations from a re-analysis of the deposited data

How the results depend on the processing

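Of 39 values under alternatives, 34 stayed within the limit set for each. That limit was 1.5 times the main value, or 5% for the implied fold. For shares of peaks or of windows, it was the 95% exact binomial interval of the main value. Keeping the 50% of peaks with the higher score left 5 inv-en peaks, with a median score of 88.19 and a median width of 1049 bp, by construction, since the weak peaks were removed. The share of inv-en peaks in the top 25% by score, 40.0% as deposited, was 22.2% to 40.0% under its alternatives, lowest with peaks within 1000 bp merged. All of these counted as within, because the interval from 10 peaks, 12.2 to 73.8%, is wide. That count is therefore weak evidence of stability for this share. On 2R alone, 11.8% of windows had as many peaks as inv-en, against 8.88% over all arms. The share of windows with as many peaks of the top 10% was 4.90% after merging within 1000 bp, against 2.37%. Neither this measure nor its alternative was planned. The alternative was chosen after seeing the data, and the merging joins the strong pair. No paired analysis was possible because the 4 libraries share 1 score per peak, which also means that leaving out a replicate was not an option. Without known depths, a stretch of the locus with no peak may still hold TCF below the calling threshold.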
